A study of Mus musculus with 6 samples.

Results

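Cytochrome P450 genes of families 1 to 4, with the proteins that pass electrons to these enzymes, were examined in PiZ and wild-type mouse liver. Members were taken by gene symbol (Cyp followed by a family number of 1 to 4, a subfamily letter and a gene number, or Por, Cyb5a, Cyb5b and Cyb5r3) from probe sets annotated to a single gene, and each gene was represented by its brightest probe set over the 6 arrays. This gave 51 genes of the 12393 measured, made up of 48 P450 genes in 16 subfamilies and 3 of the 4 named electron partners. Por was named by no single-gene probe set and was not analysed here. PiZ mice carry a transgene for the Z form of human alpha-1 antitrypsin, a liver-made protease inhibitor whose Z form is retained inside hepatocytes. The PiZ group held 3 livers of genotype PiZ and the wild-type (WT) group 3 livers of wild-type genotype, all from C57BL/6 animals aged 6 weeks, and no treatment was listed for either group. The sources used here do not state the promoter of the transgene, the sex of the mice or whether animals were pooled. Each liver was measured on a one-colour Affymetrix array, and values are log2 intensities.

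P450 enzymes are heme proteins of the endoplasmic reticulum that insert an oxygen atom into their substrates. Families 1 to 3 act mainly on drugs, toxins, steroids and other lipids, and several of their genes are induced by the xenobiotic sensors AHR, CAR (Nr1i3) and PXR (Nr1i2). Family 4 hydroxylates fatty acids and eicosanoids, and its Cyp4a genes are classical targets of the fatty acid sensor PPARA. Electrons reach these enzymes from P450 reductase (Por) and, for some reactions, from cytochrome b5. In mice many of these genes sit in clusters of near copies, and several differ between the sexes under the control of growth hormone.

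Before the members are described, the PiZ arrays must be set apart from each other. The Gapdh control probe sets gave a 3′ minus 5′ difference, which widens as RNA breaks down, of 1.99, 4.39 and 4.01 on the log2 scale in PiZ replicates 1, 2 and 3, against 1.49, 2.06 and 1.65 in WT. PiZ replicate 1 correlated with WT arrays at 0.980 to 0.981 over all genes, and PiZ replicates 2 and 3 did at 0.962 to 0.969. With PiZ replicates 2 and 3, PiZ replicate 1 correlated at 0.980 and 0.984, so it was about as close to them as to WT. PiZ replicates 2 and 3 correlated with each other at 0.993, and the WT arrays did at 0.996 to 0.997. Values of the changed members are therefore given for each array, and differences from the WT mean are split into PiZ replicate 1 and the mean of replicates 2 and 3 for the members in which they part most. The part of RNA quality in these differences was not tested beyond the fit described below. Hepatocyte markers made a summed intensity of 16.9 to 17.1 (log2) in PiZ and 17.2 in every WT liver, and 1 of their 6 measured genes passed the test, the fibrinogen chain Fgb, lower in PiZ. Albumin (Alb) gave 14.89, 14.73 and 14.63 in PiZ, against 14.94, 14.92 and 14.96 in WT. In whole liver, fewer cells of a type and less RNA per cell cannot be told apart.

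Sequences just upstream of 7 members are shown because they display how close the copies are whose transcripts are compared below. They are the 250 bases before the first listed transcription start in RefSeq (build GRCm38.p6), 5′ to 3′ on the gene's own strand, and 40 of the 51 members had such an entry. Capitals in Cyp2b9 and Cyp2b13 mark the bases that differ between these 2 genes, and in Cyp2c37 and Cyp2c50 the aligned bases that differ between that pair. Bases of that pair that face a gap in the alignment stay in lower case. Capitals in Cyp2c68 and Cyp3a11 mark CAAAGTCCA, a motif of the hepatocyte factor HNF4. Cyp2b10 has no capitals. Cyp2b9 lies at chr7:26173159-26173408, Cyp2b13 at chr7:26061245-26061494 and Cyp2b10 at chr7:25897408-25897657, all on the plus strand. Cyp2c37 lies at chr19:39992174-39992423 and Cyp2c50 at chr19:40089429-40089678 on the plus strand, Cyp2c68 at chr19:39741102-39741351 and Cyp3a11 at chr5:145879855-145880104 on the minus strand.
Cyp2b9: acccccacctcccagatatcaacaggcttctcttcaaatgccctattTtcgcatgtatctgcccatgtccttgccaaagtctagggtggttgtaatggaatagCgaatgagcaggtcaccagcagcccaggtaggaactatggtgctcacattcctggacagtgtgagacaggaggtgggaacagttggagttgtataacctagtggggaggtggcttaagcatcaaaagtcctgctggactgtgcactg
Cyp2b13: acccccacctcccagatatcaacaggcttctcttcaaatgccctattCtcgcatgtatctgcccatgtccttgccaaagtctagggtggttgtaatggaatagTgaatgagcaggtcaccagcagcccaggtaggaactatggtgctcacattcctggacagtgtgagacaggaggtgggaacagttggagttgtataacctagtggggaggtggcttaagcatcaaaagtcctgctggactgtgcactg
Cyp2b10: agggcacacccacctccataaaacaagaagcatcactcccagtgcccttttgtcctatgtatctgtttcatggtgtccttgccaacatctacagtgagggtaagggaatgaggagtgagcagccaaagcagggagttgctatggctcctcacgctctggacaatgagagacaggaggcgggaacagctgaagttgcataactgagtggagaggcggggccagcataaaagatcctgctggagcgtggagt
Cyp2c37: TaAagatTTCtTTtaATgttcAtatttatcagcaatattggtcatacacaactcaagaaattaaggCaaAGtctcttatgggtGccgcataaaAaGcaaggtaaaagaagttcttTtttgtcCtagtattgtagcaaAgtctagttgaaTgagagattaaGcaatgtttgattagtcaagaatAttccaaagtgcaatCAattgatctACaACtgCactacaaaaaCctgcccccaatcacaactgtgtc
Cyp2c50: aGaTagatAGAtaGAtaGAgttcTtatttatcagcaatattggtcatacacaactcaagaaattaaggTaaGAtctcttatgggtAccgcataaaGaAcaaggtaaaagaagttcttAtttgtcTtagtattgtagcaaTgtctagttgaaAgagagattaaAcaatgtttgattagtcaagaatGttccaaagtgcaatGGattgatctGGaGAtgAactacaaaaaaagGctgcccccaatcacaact
Cyp2c68: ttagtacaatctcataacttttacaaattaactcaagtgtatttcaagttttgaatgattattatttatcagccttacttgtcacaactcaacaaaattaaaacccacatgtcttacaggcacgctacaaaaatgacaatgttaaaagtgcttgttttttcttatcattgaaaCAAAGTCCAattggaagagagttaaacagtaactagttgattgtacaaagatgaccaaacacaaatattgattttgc
Cyp3a11: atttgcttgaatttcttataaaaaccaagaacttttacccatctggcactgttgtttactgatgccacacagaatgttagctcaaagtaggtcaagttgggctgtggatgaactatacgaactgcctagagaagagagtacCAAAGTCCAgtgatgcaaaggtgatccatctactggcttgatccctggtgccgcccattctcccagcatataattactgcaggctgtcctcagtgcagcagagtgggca

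Cyp2b9 and Cyp2b13 differed at 2 of the 250 upstream bases (99.2% identity), and each shared 71% of aligned positions with Cyp2b10. Cyp2c37 and Cyp2c50 shared 84.3%, with 30 mismatches and 10 gap positions in 255 aligned columns, while Cyp2c68 shared 55.4% with Cyp2c37 and 52.5% with Cyp2c50. CAAAGTCCA, searched on both strands, was present upstream of 5 of the 40 members (12.5%: Cyp2c65, Cyp2c68, Cyp2c70, Cyp3a11 and Cyp3a16) and of 0.381% of the 27025 RefSeq promoters scanned over the same length. It stood 77 to 69 bases before the start in Cyp2c68 and 109 to 101 bases before it in Cyp3a11. A STAT5 motif, TTCNNNGAA, which reads the same on both strands, was present upstream of 2 members (5%: Cyp4b1 and Cyp4f13) and of 7.18% of all promoters. TATAAA was found on either strand in 16 members (40%) and in 13% of all promoters. These matches describe letters in a window and are not evidence of binding.

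Of the 51 members, 17 (33.3%) passed limma's test at an adjusted p under 0.05 over all genes, against a background of 23.6% of the 12393 genes. Cyp2b genes made up 3 of the 5 higher members, and Cyp2c genes made up 6 of the 12 lower members. In all, 5 members were higher in PiZ (background 11.3% of genes) and 12 were lower (background 12.3%), and 11 of the 17 differed at least 2-fold. The groups did not overlap for 27 members, 11 higher in PiZ and 16 lower, where the backgrounds were 44.8% of genes in either direction, 24.9% higher and 19.9% lower. Of all 2921 genes that passed, 2918 did not overlap, so a lack of overlap adds little for a member that passed. The median difference of the members was 0.05 on the log2 scale, beside 0.08 over all genes, with a range of -2.02 to 3.15. Bright and dim members are given beside all genes of the same brightness. Of 26 members averaging at least 10 on the log2 scale, 9 were lower in PiZ and 0 higher by limma (14 lower and 0 higher at an unadjusted p under 0.05), and their median difference was -0.39. Of all 1462 genes that bright, 23% were lower and 15.8% higher, with a median of -0.14. Of 16 members averaging under 7, 2 were higher and 0 lower (3 and 0 unadjusted), and the median was 0.25. Of all 6573 genes that dim, 8.85% were higher and 5.32% lower, with a median of 0.15. The lower quartile of all probe sets was 4.35, 4.46 and 4.45 in PiZ arrays, against 4.28, 4.32 and 4.28 in WT. The part of this shift in the small positive differences of dim members was not tested.

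**Figure D1:**
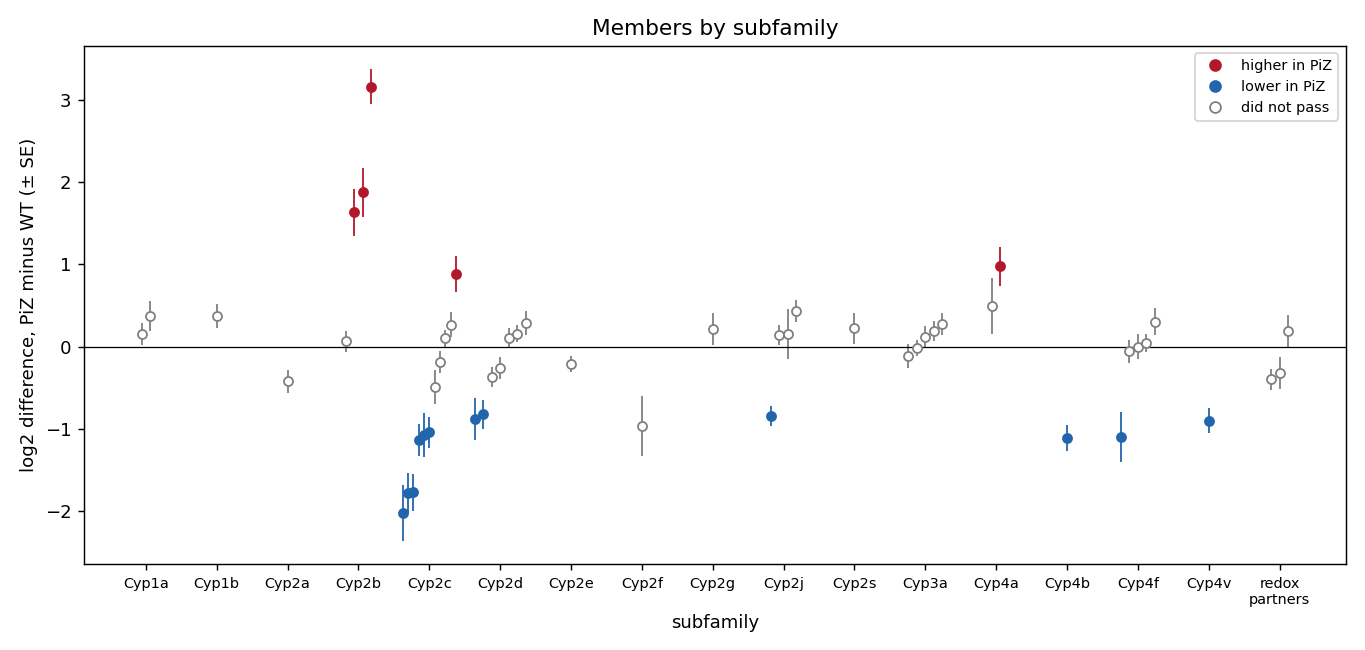
Log2 difference, PiZ minus WT, of each of the 51 members (vertical axis, points with standard errors) by subfamily (horizontal axis), with filled points for members that passed the test. Cyp2b members reach 3.15 and Cyp2c members spread from -2.02 to 0.88.

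The largest rise belonged to Cyp2b9, a Cyp2b enzyme that in mouse liver is typically higher in females. It read 11.13, 10.57 and 10.51 in PiZ livers, against 7.32, 7.54 and 7.90 in WT livers. Every PiZ value lay above every WT value, and PiZ replicate 1 was the highest. The difference of 3.15 ± 0.21 (SE, n = 3 each; 95% interval 2.66 to 3.65) is an 8.90-fold rise, with a limma adjusted p of 0.000191. Cyp2b13, its near copy by upstream sequence and also female-biased in mouse liver, read 7.95, 7.04 and 6.69 in PiZ livers, against 5.48, 5.21 and 5.38 in WT livers. The same order held, with replicate 1 highest in PiZ and no overlap. Its rise was 3.66-fold (log2 difference 1.87 ± 0.29, adjusted p 0.00577).

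Cyp2b10, the classical CAR target of mouse liver, read 9.01, 8.20 and 7.82 in PiZ, against 6.93, 6.70 and 6.50 in WT. All 3 PiZ livers were above all 3 WT livers, and the rise was 3.10-fold (1.63 ± 0.29, adjusted p 0.00822). Its 2 other probe sets differed by 1.35 (adjusted p 0.0450 over all 22626 probe sets, of which 19.1% passed) and by 0.90 (adjusted p 0.0663), and in both the groups did not overlap. Probe sets for such close genes may each bind transcripts of more than 1 Cyp2b gene, which was not tested here. The other Cyp2b member, Cyp2b19, differed by 0.06 and did not pass. All 3 changed Cyp2b genes differed more in PiZ replicate 1 than in replicates 2 and 3: the differences were 3.55 and 2.96 for Cyp2b9, 2.60 and 1.51 for Cyp2b13, and 2.30 and 1.30 for Cyp2b10. The 3′ to 5′ difference of PiZ replicate 1 was within the WT range for Gapdh, and the part of RNA quality in this split was not tested.

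**Figure D2:**
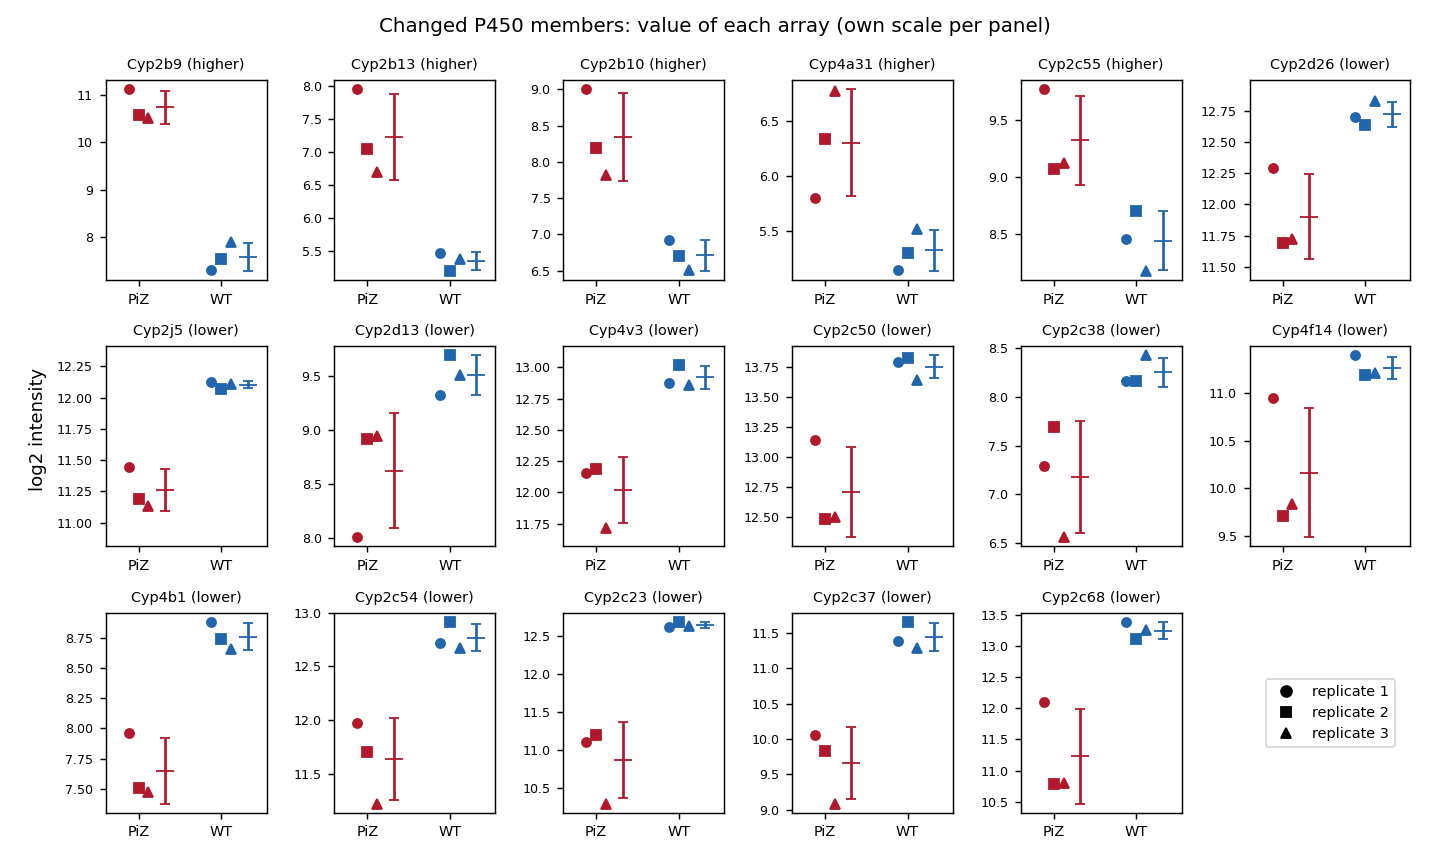
Log2 intensity (vertical axis, own scale per panel) of each changed member in the 3 PiZ and the 3 WT livers, with 1 marker shape per replicate number and the group mean ± SD beside the points. In none of the 17 panels do the PiZ and WT livers overlap, which also held for 2918 of all 2921 genes that passed.

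The Cyp2c subfamily, which oxidises arachidonic acid, retinoids and many drugs, held 7 of the 17 changed members. Of its 11 measured genes, 6 were lower in PiZ, 1 was higher and 4 did not pass, with a median difference of -1.04. As for Cyp2b, a probe set may bind transcripts of more than 1 Cyp2c gene, so these counts may not be of separate transcripts. This was not tested. Cyp2c68 gave 12.10, 10.78 and 10.80 in PiZ, against 13.39, 13.11 and 13.25 in WT. PiZ replicate 1 lay between the other PiZ livers and WT. The fall was 4.06-fold (-2.02 ± 0.34, adjusted p 0.00717), and the differences were -1.15 in replicate 1 and -2.46 in replicates 2 and 3.

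Cyp2c37, which makes hydroxylated arachidonic acid products, gave 10.06, 9.83 and 9.09 in PiZ, against 11.39, 11.66 and 11.28 in WT. Replicate 3 was the lowest PiZ liver, and all 3 lay below WT. It fell 3.44-fold (-1.78 ± 0.25, adjusted p 0.00375). Cyp2c23, an arachidonic acid epoxygenase best known from kidney, gave 11.11, 11.20 and 10.30 in PiZ and a tight 12.61, 12.68 and 12.63 in WT. It fell 3.41-fold (-1.77 ± 0.23, adjusted p 0.00287), again with replicate 3 lowest and no overlap.

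Cyp2c54 read 11.97, 11.70 and 11.22 in PiZ, against 12.72, 12.92 and 12.68 in WT. Cyp2c50, an epoxygenase, read 13.14, 12.49 and 12.50 in PiZ, against 13.79, 13.82 and 13.64 in WT. Both were lower in every PiZ liver, by 2.20-fold for Cyp2c54 (-1.14 ± 0.19, adjusted p 0.00766) and by 2.05-fold for Cyp2c50 (-1.04 ± 0.19, adjusted p 0.00934). The differences in replicate 1 and in replicates 2 and 3 were -0.80 and -1.31 for Cyp2c54, and -0.60 and -1.26 for Cyp2c50. Cyp2c38, a dimmer member that is female-biased in mouse liver, read 7.29, 7.69 and 6.56 in PiZ, against 8.16, 8.17 and 8.43 in WT. Its fall of 2.10-fold (-1.07 ± 0.27, adjusted p 0.0265) was carried most by replicate 3 and did not overlap WT. With the mean 3′ to 5′ difference as a covariate the limma adjusted p was 0.122 for Cyp2c38 and 0.0513 for Cyp2c54. Leaving out any single WT liver also ended the call of Cyp2c38, with adjusted p between 0.0723 and 0.102.

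One Cyp2c gene went the other way. Cyp2c55, a CAR- and PXR-inducible member that is prominent in the colon, read 9.78, 9.07 and 9.12 in PiZ, against 8.45, 8.70 and 8.17 in WT. PiZ replicate 1 was the highest, as for the Cyp2b genes, and the rise was 1.84-fold (0.88 ± 0.22, adjusted p 0.0269). Without PiZ replicate 3, WT replicate 1 or WT replicate 3 the adjusted p was 0.0559, 0.0867 and 0.105 in that order. Cyp2c29, a major Cyp2c enzyme of mouse liver and a CAR target, read 12.52, 12.80 and 12.85 in PiZ, against 13.03, 12.96 and 12.76 in WT. The groups overlapped and the difference was -0.19 ± 0.13 (95% interval -0.50 to 0.12, limma adjusted p 0.316). Cyp2c70, the enzyme that makes muricholic acids in mice, read 13.54, 13.01 and 12.73 in PiZ, against 13.71, 13.60 and 13.44 in WT, a difference of -0.49 ± 0.21 (adjusted p 0.117). Only replicates 2 and 3 lay below the WT range, with a mean difference of -0.72, and without replicate 1 this member passed (adjusted p 0.00311). The 2 remaining genes, Cyp2c39 and Cyp2c65, differed by 0.27 and 0.10 and did not pass.

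In RefSeq's order along their chromosome 15 protein-coding Cyp2c genes were listed, 11 of them measured. Only Cyp2c symbols were listed, with no limit on distance, so other genes may lie between them. The first listed gene, Cyp2c55, was the one that was higher in PiZ. The next measured ones, Cyp2c65, Cyp2c29 and Cyp2c39, did not pass. The lower members Cyp2c38, Cyp2c68, Cyp2c37, Cyp2c54, Cyp2c50 and Cyp2c23 all came later in the list. Of the measured Cyp2c genes, Cyp2c70 alone stood between them. Whether Cyp2c23, the last one listed, lies close to the others was not examined. Of Cyp2a, Cyp2b, Cyp2f, Cyp2g, Cyp2s and Cyp2t genes listed in the same way, 8 of 13 were measured. The 3 that passed, Cyp2b10, Cyp2b13 and Cyp2b9, stood next to each other in that list. These orders are a description, and no test was made of position or of binding between near copies.

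Outside Cyp2b and Cyp2c, 3 members of family 2 passed the test, all lower in PiZ. Cyp2j5, an arachidonic acid epoxygenase of liver and kidney that is male-biased in mice, read 11.45, 11.19 and 11.14 in PiZ, against 12.12, 12.07 and 12.11 in WT. Both groups were tight and well apart, and the fall was 1.79-fold (-0.84 ± 0.12, adjusted p 0.00405). Its second probe set also fell, by 0.73 on the log2 scale (adjusted p 0.0116). Cyp2j6, Cyp2j9 and Cyp2j13 did not pass. Cyp2j6 differed by 0.44 ± 0.14 (adjusted p 0.0546), with no overlap. Cyp2j9 read 6.68, 7.97 and 7.70 in PiZ, against 7.41, 7.21 and 7.27 in WT, so replicate 1 lay below WT and the other PiZ livers above it. Cyp2j13 differed by 0.14.

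In the Cyp2d subfamily, which holds relatives of the human drug-metabolising enzyme CYP2D6, 2 of 7 members were lower and 5 did not pass. Whether a Cyp2d probe set binds transcripts of more than 1 Cyp2d gene was not tested either. Cyp2d26 read 12.29, 11.69 and 11.72 in PiZ, against 12.70, 12.64 and 12.83 in WT, a 1.77-fold fall (-0.82 ± 0.18, adjusted p 0.0161). Its difference was -0.43 in replicate 1 and -1.02 in replicates 2 and 3. The adjusted p was 0.0652 with the 3′ to 5′ covariate and 0.0591 for PiZ replicate 1 alone against WT. Leaving out single arrays other than PiZ replicate 1 gave 0.0515 to 0.0741. Cyp2d13, which RefSeq lists as a transcribed pseudogene, read 8.01, 8.92 and 8.95 in PiZ, against 9.32, 9.69 and 9.51 in WT. Here replicate 1 was the lowest, unlike most lower members. The difference was -0.88 ± 0.25 (adjusted p 0.0422), and its second probe set differed by -1.62 (adjusted p 0.00359). The call on the brighter probe set ended in 8 of 16 alternatives, with adjusted p as high as 0.130.

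Cyp2d9, a male-biased steroid hydroxylase of mouse liver, read 13.39, 13.29 and 13.60 in PiZ, against 13.73, 13.81 and 13.87 in WT. The groups did not overlap, but the difference of -0.37 ± 0.12 (95% interval -0.65 to -0.09) had an adjusted p of 0.0583. Cyp2d10 differed by 0.16 ± 0.11 and Cyp2d22 by -0.26 ± 0.14, neither past the test. Cyp2d22 had a second, dimmer probe set that read 9.36, 9.28 and 9.31 in PiZ, against 10.14, 10.07 and 10.19 in WT, a fall of 0.81 on the log2 scale (adjusted p 0.00343). The 2 probe sets of this gene therefore gave different calls. Cyp2d12 and Cyp2d34 differed by 0.11 and 0.29.

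Cyp2f2, which activates naphthalene in mouse lung and is male-biased in mouse liver, showed the widest split among PiZ livers. It read 13.49, 12.23 and 11.89 in PiZ, against 13.52, 13.46 and 13.52 in WT. Replicate 1 lay within the WT range, while replicates 2 and 3 lay well below it. The difference of -0.97 ± 0.36 had a limma adjusted p of 0.0893. It was -0.01 in replicate 1 and -1.44 in replicates 2 and 3, the pair with the wide 3′ to 5′ differences, and without replicate 1 the adjusted p was 0.000127.

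Cyp2e1, the ethanol-oxidising enzyme of hepatocytes near the central vein, read 14.07, 13.99 and 14.04 in PiZ, against 14.27, 14.21 and 14.26 in WT. All PiZ values were below all WT values, but the difference of -0.21 ± 0.10 (95% interval -0.44 to 0.01) did not pass (adjusted p 0.146). Cyp2a12, a steroid hydroxylase, read 12.67, 12.42 and 12.20 in PiZ, against 12.83, 12.81 and 12.91 in WT, and its difference of -0.42 ± 0.14 had an adjusted p of 0.0631. Cyp2g1 and Cyp2s1, both dim here, differed by 0.21 and 0.22 and did not pass. A probe set annotated to both Cyp2a5 and Cyp2a4, and so outside the single-gene choice, read 13.72, 13.16 and 13.16 in PiZ, against 11.71, 11.69 and 12.46 in WT. Cyp2a5 oxidises coumarin, and Cyp2a4 is a female-biased steroid hydroxylase of mouse liver. No PiZ value overlapped WT, and the rise was 2.62-fold (1.39 ± 0.25, adjusted p 0.0115 over all probe sets). Which of the 2 genes it reflects cannot be told from this probe set.

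**Figure D3:**
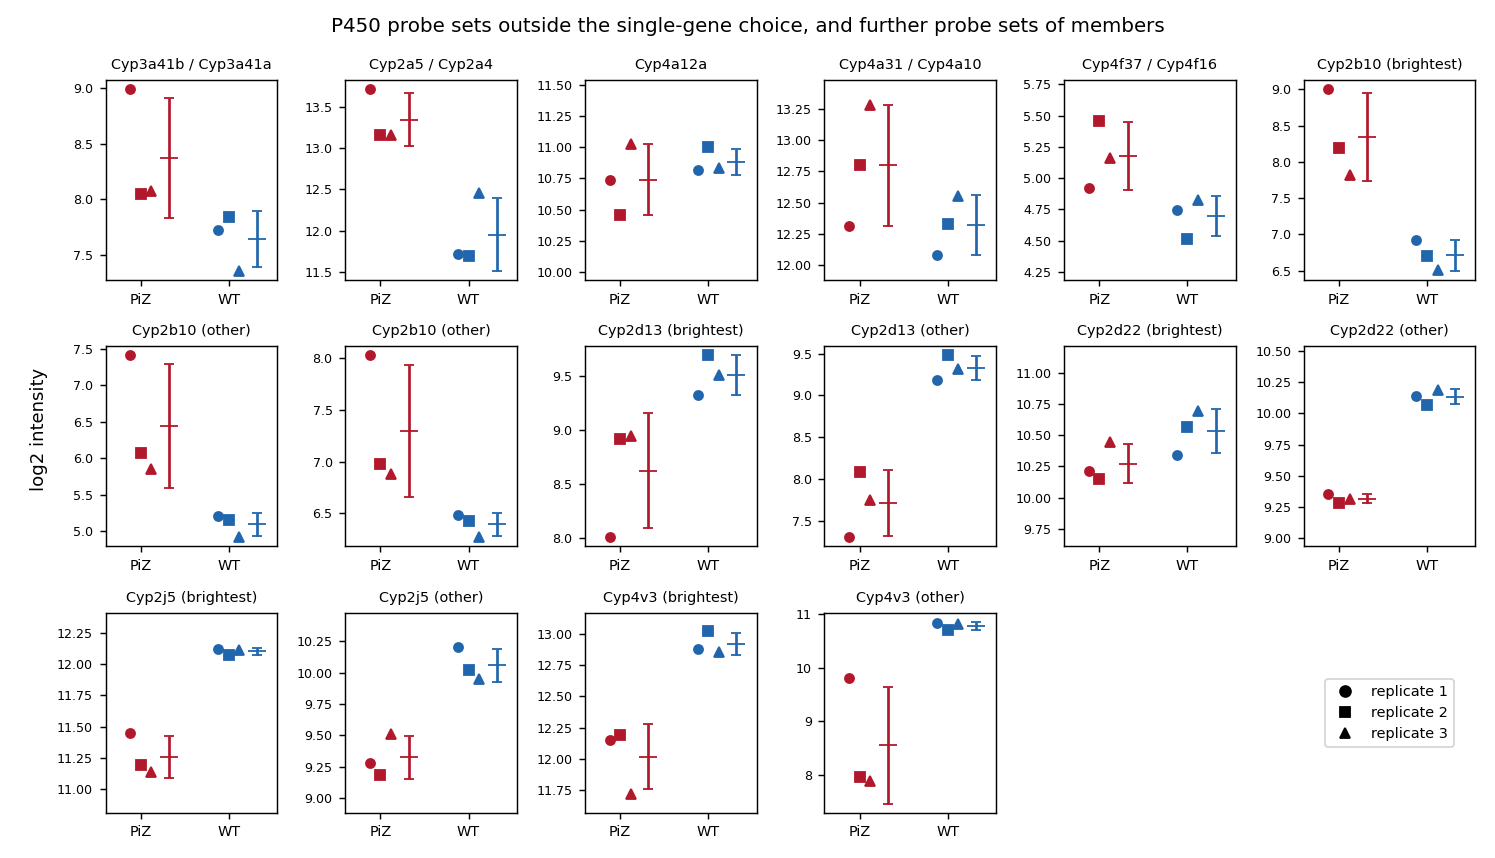
Log2 intensity (vertical axis, own scale per panel) in the 3 PiZ and the 3 WT livers for P450 probe sets outside the single-gene choice and for further probe sets of members, with the group mean ± SD beside the points. The probe set shared by Cyp2a5 and Cyp2a4 lies at 13.16 or above in PiZ and at 12.46 or below in WT.

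Of the 5 Cyp3a members 0 passed limma's test, and 0 did at an unadjusted p under 0.05. Of the 3 members of family 1, 0 passed, and 1 did unadjusted (Cyp1b1). Cyp1b1, Cyp3a25 and Cyp3a44 passed in 2 of the alternatives each. Cyp3a11, the main PXR-inducible Cyp3a enzyme of mouse liver, read 14.43, 14.55 and 14.53 in PiZ, against 14.54, 14.53 and 14.49 in WT. The groups overlapped, and the difference of -0.02 ± 0.10 had a 95% interval of -0.25 to 0.22 (adjusted p 0.921). This probe set lay near the top of the array's range, which ended at 14.98. Cyp3a25 differed by 0.19 ± 0.12 (95% interval -0.09 to 0.47) and Cyp3a13 by -0.12 ± 0.14, and the dimmer Cyp3a16 and Cyp3a44, both female-biased in mouse liver, differed by 0.12 and 0.28. A probe set shared by Cyp3a41b and Cyp3a41a read 8.99, 8.05 and 8.07 in PiZ, against 7.73, 7.84 and 7.36 in WT, a difference of 0.73 ± 0.27 (adjusted p 0.0933 over all probe sets).

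Cyp1a2, an AHR target that oxidises caffeine and aromatic amines, read 12.95, 13.21 and 13.04 in PiZ, against 12.75, 13.07 and 12.92 in WT, a difference of 0.15 ± 0.13 (95% interval -0.15 to 0.45). Cyp1a1, the most AHR-responsive P450 gene, read 5.89, 5.93 and 5.82 in PiZ, against 5.67, 5.76 and 5.09 in WT, a difference of 0.37 ± 0.18 (adjusted p 0.164). Cyp1b1, an AHR target found mainly outside hepatocytes, also differed by 0.37 without passing.

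In family 4 there were 4 changed members, 3 of them lower. Cyp4b1, which bioactivates furans and is best known from lung, read 7.96, 7.51 and 7.48 in PiZ, against 8.88, 8.74 and 8.66 in WT. It fell 2.16-fold (-1.11 ± 0.16, adjusted p 0.00393), with all PiZ livers below WT. Cyp4v3, the mouse counterpart of a fatty acid hydroxylase mutated in a human retinal dystrophy, read 12.15, 12.19 and 11.72 in PiZ, against 12.88, 13.02 and 12.86 in WT. It fell 1.87-fold (-0.90 ± 0.15, adjusted p 0.00717). Its second probe set read 9.81, 7.96 and 7.89 in PiZ, against 10.84, 10.70 and 10.80 in WT, a difference of -2.23 ± 0.47 (adjusted p 0.0194). There PiZ replicates 2 and 3 lay far below replicate 1, by more than in the brighter probe set.

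Cyp4f14, which hydroxylates leukotriene B4 and vitamin side chains, read 10.95, 9.71 and 9.83 in PiZ, against 11.40, 11.19 and 11.21 in WT. Its fall was 2.15-fold (-1.10 ± 0.30, adjusted p 0.0371), but the differences were -0.32 in replicate 1 and -1.49 in replicates 2 and 3. The adjusted p was 0.195 with the 3′ to 5′ covariate and 0.140 for PiZ replicate 1 alone, and leaving out single arrays other than that one gave 0.0931 to 0.127. Cyp4f15 differed by -0.0019 on the log2 scale, and Cyp4f13, Cyp4f16 and Cyp4f18 differed by -0.06, 0.05 and 0.30, none past the test.

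Cyp4a31, a fatty acid hydroxylase of the PPARA-responsive Cyp4a group, was the one family 4 member that rose. It was dim, at 5.80, 6.34 and 6.77 in PiZ, against 5.15, 5.31 and 5.52 in WT. The rise was 1.97-fold (0.98 ± 0.24, adjusted p 0.0250), smaller in replicate 1 (0.47) than in replicates 2 and 3 (1.23). With the 3′ to 5′ covariate its adjusted p was 0.212, for PiZ replicate 1 alone 0.0926, and without single arrays other than PiZ replicate 1 between 0.0627 and 0.0953. Cyp4a14, a stronger PPARA target, read 11.44, 12.28 and 12.92 in PiZ, against 11.59, 11.57 and 12.00 in WT, a difference of 0.49 ± 0.34 (adjusted p 0.306). Replicate 1 was below every WT liver and replicates 2 and 3 were above every WT liver. A probe set shared by Cyp4a31 and Cyp4a10 differed by 0.48 ± 0.25 (adjusted p 0.201). Cyp4a12a, a male-biased gene whose symbol falls outside the rule, differed by -0.15 ± 0.16.

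Of the 3 measured electron partners, 0 passed limma's test and 1, Cyb5a, had an unadjusted p under 0.05. Without PiZ replicate 1, when 49.8% of all genes passed, all 3 did, with adjusted p of 0.00286 for Cyb5a, 0.0108 for Cyb5b and 0.0151 for Cyb5r3. Cytochrome b5 (Cyb5a), which donates the second electron in some P450 reactions, read 13.40, 13.06 and 13.07 in PiZ, against 13.58, 13.56 and 13.57 in WT. Every PiZ value was lower, and the difference of -0.40 ± 0.13 had an adjusted p of 0.0548. Cyb5b, the outer mitochondrial form, differed by -0.32 ± 0.19 (adjusted p 0.242). Further Cyb5b probe sets differed by 0.14 and 0.05. Cyb5r3, the reductase of cytochrome b5, differed by 0.19 ± 0.20 in its brightest probe set (adjusted p 0.516). Its 3 other probe sets differed by -0.48 (adjusted p 0.0525), -1.95 (adjusted p 0.0224) and 0.18, so its probe sets gave different signs and no single direction is reported for this gene.

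**Figure D4:**
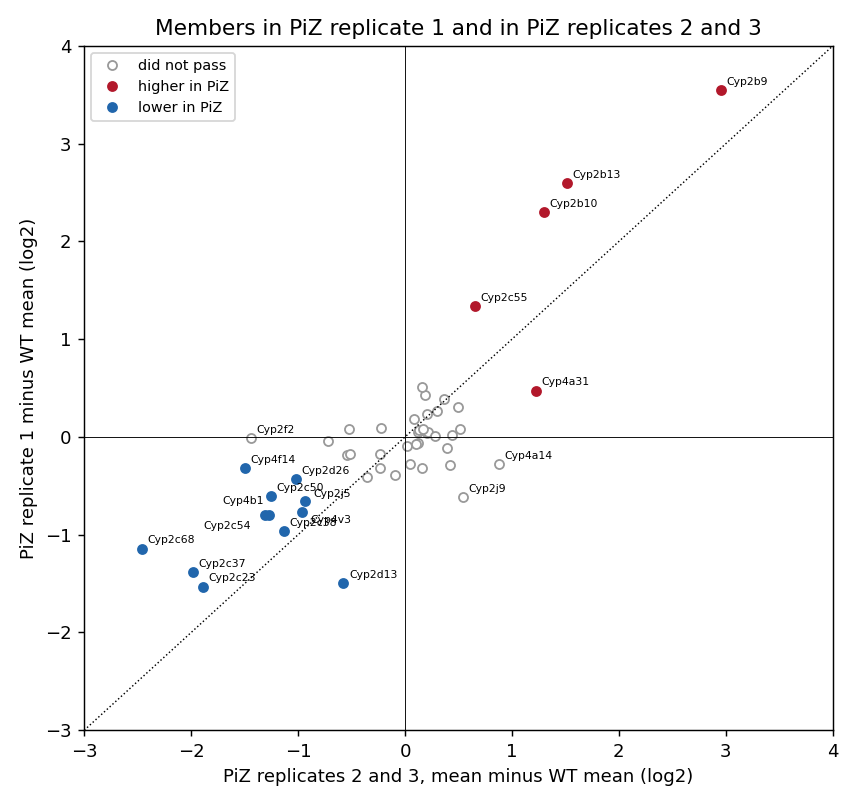
Difference from the WT mean (log2) of each of the 51 members in PiZ replicate 1 (vertical axis) against the mean of PiZ replicates 2 and 3 (horizontal axis), with filled points for members that passed the test. Lower members lie closer to 0 in replicate 1 in 11 of 12 cases, whereas 4 of the 5 higher members are farther from 0 there.

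The split among PiZ livers was also counted over all members. Differences had the same sign in PiZ replicate 1 and in replicates 2 and 3 for 40 of 51 members (78.4%), beside 71.3% of all genes. The difference was smaller in replicate 1 for 34 of 51 (66.7%), the same share as over all genes (66.7%). For 11 of the 12 lower members it was smaller, beside 79.4% of all 1525 lower genes, with medians of -0.80 in replicate 1 and -1.26 in replicates 2 and 3. For the 5 higher members the medians were 2.30 and 1.30, and among these 5 it was smaller for Cyp4a31 alone, beside 72.8% of all 1396 higher genes. These counts are a description, and their difference from all genes was not tested. Of the 17 changed members, 14 also passed with PiZ replicate 1 alone against WT, and 17 passed without it, when 30 members passed in all and 49.8% of genes did.

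Genes that act on P450 transcription were described from lists. Of 26 measured nuclear receptors and liver factors, 6 were lower and 2 higher in PiZ, with a median of -0.12. The 4 largest were Onecut1 (-2.21 ± 0.55, adjusted p 0.0269), Foxa1 (-2.20 ± 0.16, adjusted p 0.000280), the glucocorticoid receptor Nr3c1 (-1.40 ± 0.24, adjusted p 0.00765) and Foxa2 (-1.27 ± 0.21, adjusted p 0.00656). Outside the naming rule, and chosen after their values were seen, are the sensors CAR, PXR, AHR and PPARA and the hepatocyte factor HNF4A. CAR (Nr1i3) read 8.68, 8.92 and 8.63 in PiZ, against 8.67, 8.48 and 9.01 in WT, a difference of 0.02 ± 0.16 that did not pass (adjusted p 0.934). PXR (Nr1i2) differed by 0.54 ± 0.25 (adjusted p 0.142), AHR by 0.55 ± 0.20 (adjusted p 0.0778) and HNF4A by -0.12 ± 0.11 (adjusted p 0.456), while Ppara fell by 1.10 ± 0.21 (adjusted p 0.0103).

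Targets of these sensors moved unevenly. Among 18 measured CAR and PXR targets, 8 were higher and 1 lower, with a median of 0.16. Besides Cyp2b10, the largest were the glutathione transferases Gsta2 (2.82 ± 0.16, adjusted p 9.69e-05) and Gstm3 (2.70 ± 0.12, adjusted p 2.51e-05) and the stress gene Gadd45b (1.85 ± 0.31, adjusted p 0.00717). Cyp3a11, Cyp3a13 and Cyp2c29, of the same list, did not pass. Of 8 AHR targets 1 passed, the quinone reductase Nqo1 (1.88 ± 0.12, adjusted p 0.000137), with a list median of 0.28, while its P450 members Cyp1a1, Cyp1a2 and Cyp1b1 did not. Gsta2, Gstm3 and Nqo1 are also known targets of the oxidative stress factor NRF2. Of 14 PPARA targets, 2 were higher and 2 lower with a median of -0.03: Pdk4 rose by 2.69 ± 0.40 (adjusted p 0.00487) and Cyp4a31 rose as above, while Cpt1a fell by 1.29 ± 0.16 (adjusted p 0.00274) and Vnn1 fell by 1.04 ± 0.12 (adjusted p 0.00176).

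Growth hormone signalling sets the sex difference of many P450 genes. Of its 12 listed genes 4 were lower and 0 higher in PiZ by limma (4 and 2 at an unadjusted p under 0.05), with a median of -0.15. The feedback inhibitors Socs2 (-2.58 ± 0.52, adjusted p 0.0129) and Cish (-2.30 ± 0.22, adjusted p 0.00106), the target Igf1 (-1.07 ± 0.16, adjusted p 0.00528) and the receptor Ghr (-1.06 ± 0.17, adjusted p 0.00581) were the ones that fell. P450 genes known to be higher in male mouse liver included 6 measured ones, of which limma called 3 lower and 0 higher in PiZ (5 and 0 unadjusted), with a median of -0.77: Cyp2j5, Cyp8b1 and Cyp7b1. P450 genes higher in female mouse liver included 10 measured ones, of which 4 were higher (Cyp2b9, Cyp2b13, Cyp2b10 and Cyp26a1) and 1 lower (Cyp2c38), with a median of 0.48. Because the sex of the mice is not given, genes of the X and Y chromosomes were examined. Eif2s3y, on the Y chromosome, read 8.99, 8.77 and 8.92 in PiZ, against 9.17, 9.42 and 8.79 in WT. Xist, expressed from an inactive X chromosome, read 5.44, 6.05 and 5.53 in PiZ, against 5.43, 5.51 and 5.26 in WT. The groups overlapped in both genes. Of the 4 such genes measured, Kdm5d passed, lower in PiZ (-0.88 ± 0.14, adjusted p 0.00645).

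Of 10 genes of the circadian clock and its output, 3 were lower and 1 higher by limma, with a median of -0.47. The list includes the bZip factors that drive some Cyp2 genes in mice. Those that passed were Dbp (-2.54 ± 0.57, adjusted p 0.0196), Hlf (-1.42 ± 0.17, adjusted p 0.00207), Nr1d2 (-0.75 ± 0.15, adjusted p 0.0128) and Per1 (1.30 ± 0.30, adjusted p 0.0216). Of 16 genes of heme synthesis and breakdown, 2 were higher with a median of -0.08, the biliverdin reductase Blvrb (1.33 ± 0.14, adjusted p 0.00125) and the mitochondrial glycine carrier Slc25a38 (0.55 ± 0.11, adjusted p 0.0138). Of 12 epoxide hydrolases, eicosanoid enzymes and flavin monooxygenases, 4 were higher and 1 lower with a median of 0.23. Fmo5 rose by 1.18 ± 0.16 (adjusted p 0.00365), Fmo4 by 0.92 ± 0.13 (adjusted p 0.00365) and Alox15 by 0.50 ± 0.12 (adjusted p 0.0240). Ephx2, the soluble hydrolase that opens the epoxides made by Cyp2c and Cyp2j enzymes, read 12.14, 11.89 and 12.02 in PiZ, against 12.73, 12.80 and 12.85 in WT. It fell by 0.78 ± 0.11 on the log2 scale (adjusted p 0.00437), beside the lower epoxygenases Cyp2c23, Cyp2c50 and Cyp2j5. Not all members of these subfamilies fell. Of 11 Cyp2c members 6 were lower, 1 was higher and 4 did not pass, and of 4 Cyp2j members 1 was lower and 3 did not pass.

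Several members mark hepatocytes around the central vein. Of 18 measured genes of that zone, 3 were lower, the members Cyp2c37, Cyp2c54 and Cyp2c50, and 1 was higher, the ammonium transporter Rhbg (2.21 ± 0.15, adjusted p 0.000221), with a median of -0.02. Cyp2e1, Cyp1a2, Cyp2c29 and Cyp3a11, of the same list, did not pass. Among markers of other cells, 3 of 10 Kupffer cell and macrophage genes were higher in PiZ, namely Marco (0.97 ± 0.16, adjusted p 0.00711), Cd5l (0.67 ± 0.12, adjusted p 0.00811) and Clec4f (0.64 ± 0.11, adjusted p 0.00874), with a median of 0.07 and a summed intensity (log2) of 13.2 to 13.5 in PiZ and 13.0 to 13.1 in WT. By limma, endothelial markers passed in 0 of 8, and 1 did unadjusted (median -0.07, summed 11.6 to 11.8 in PiZ and 11.8 to 11.9 in WT). Stellate and fibroblast markers had 1 of 8 lower, Lum (median -0.04, summed 12.8 to 13.3 in PiZ and 13.0 to 13.1 in WT). Cholangiocyte markers passed in 0 of 5, and 2 did unadjusted (median 0.41, summed 7.40 to 7.90 in PiZ and 7.34 to 7.41 in WT). Lymphocyte markers passed in 0 of 5, 1 unadjusted (median 0.11, summed 7.54 to 7.69 in PiZ and 7.39 to 7.53 in WT). Adipocyte markers passed in 0 of 2, 1 unadjusted (median 0.17, summed 4.45 to 4.58 in PiZ and 4.22 to 4.39 in WT). Of 5 exocrine pancreas markers, Cela2a was higher and Cela1 lower (median 0.28, summed 8.96 to 9.35 in PiZ and 9.66 to 9.83 in WT). The part of these cell types in the differences of the members was not tested.

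**Figure D5:**
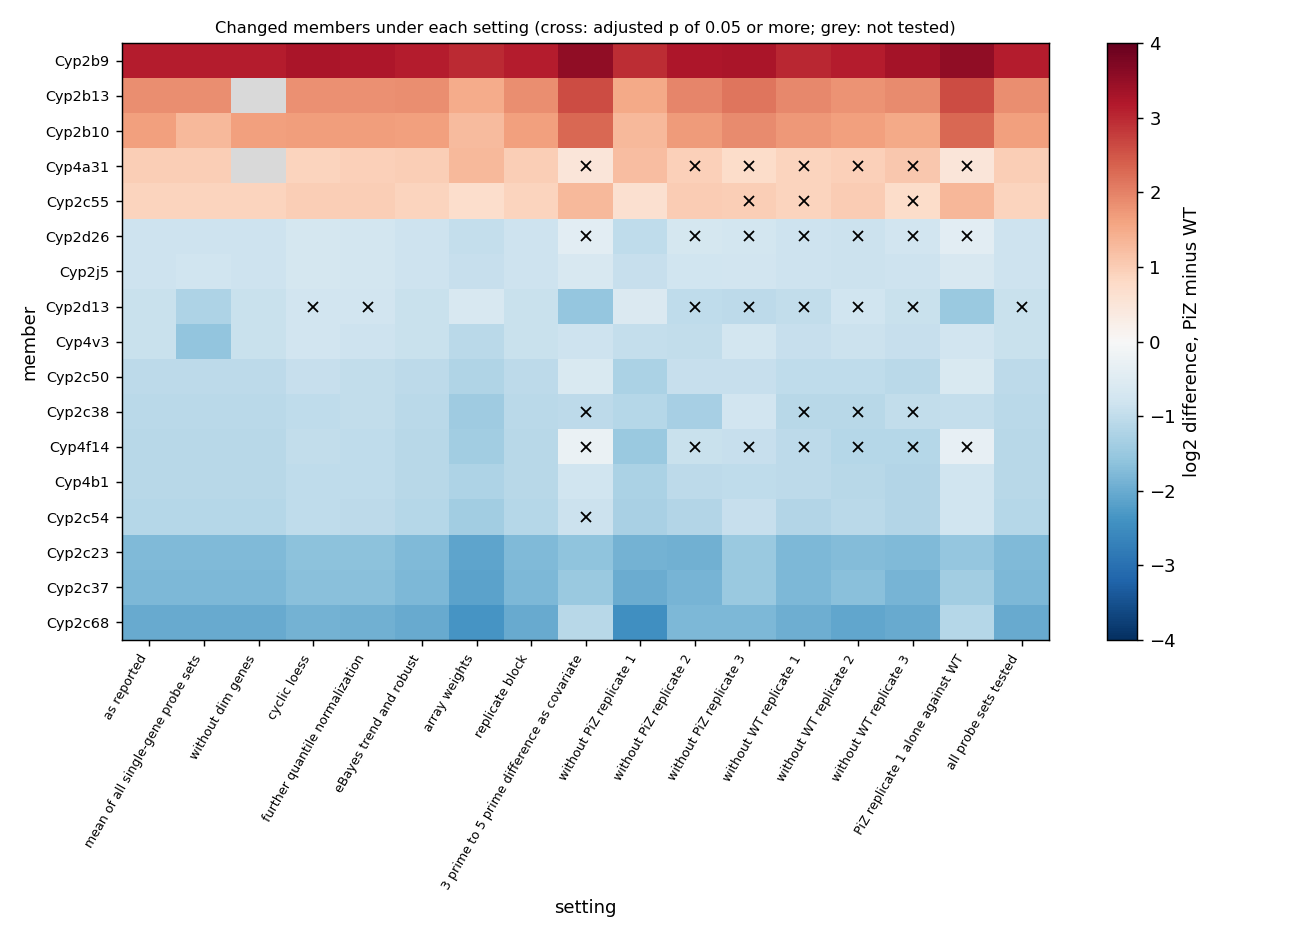
Log2 difference, PiZ minus WT (colour), of the 17 changed members (rows) as reported and under each of the 16 alternatives (columns), with a cross where the adjusted p was 0.05 or more and grey where the member was not tested. No changed member has the other sign in any column, and 10 of the 17 have no cross.

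Of the 17 calls, 10 held under every alternative that tested them: Cyp2b9, Cyp2b13, Cyp2b10, Cyp2c68, Cyp2c37, Cyp2c23, Cyp2c50, Cyp4b1, Cyp4v3 and Cyp2j5. The 7 others, Cyp2c54, Cyp2c38, Cyp2c55, Cyp2d26, Cyp2d13, Cyp4f14 and Cyp4a31, lost the call in at least 1 alternative and changed sign in 0. With the 3′ to 5′ covariate, 13 members passed, 12 of them among the 17, and 14.6% of all genes did. In that fit the Cyp2b rises were 3.54, 2.61 and 2.29 (log2) for Cyp2b9, Cyp2b13 and Cyp2b10, and Cyp2c68 differed by -1.10. In PiZ replicate 1 alone these differences were 3.55, 2.60, 2.30 and -1.15. The mean 3′ minus 5′ difference was 2.50, 4.64 and 4.33 in PiZ replicates 1, 2 and 3, and 2.20 to 2.70 in WT. The covariate fit thus came close to PiZ replicate 1 against WT, and these alternatives are not independent. It cannot tell RNA quality from other differences between the PiZ livers.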

How the data were processed

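Total RNA of 3 PiZ and 3 WT livers was hybridised to one-colour Affymetrix arrays. Each deposited value is the log2 intensity of a probe set, made with affy and RMA per the submitters' processing notes. Their versions and any filter are not stated there. RMA gives the probe intensities of every array the same distribution and so can hide a shift common to most transcripts. The resulting probe set values still differed slightly between arrays, with medians from 6.13 in PiZ replicate 1 to 6.19 in PiZ replicate 3. The log2 scale was read from the values, which lie between 2.30 and 14.98. Without detection calls, dim values and background look alike, and the number of arrays limits the precision.

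Of 22690 probe sets 64 were controls, 20380 were annotated to 1 gene, 691 to several and 1555 to none, and 9 members had several single-gene probe sets. Entrez identifiers of 20351 probe sets were found in RefSeq's table, and 0 symbols changed. PiZ was set against WT by lmFit and eBayes of limma 3.58.1 (R 4.3.3, defaults, two-sided) with Benjamini-Hochberg adjustment over 12393 genes, and values of further or shared probe sets were adjusted over 22626 probe sets. The labels call the arrays biological replicates. On simulated data for PiZ against WT (12393 genes, 200 changed), the fit called 12% of genes changed by 0.5 on the log2 scale, 86% of those changed by 1 and 100% of those changed by 2 or by 3, with 9 false calls among 158. The simulated noise was independent and had the same spread in both groups. In the real data 2921 genes passed and PiZ replicate 1 stood apart, so these rates do not carry over to the real arrays. Promoters were compared with Biopython 1.88, tables used pandas 2.3.3 and figures matplotlib 3.10.9 in Python 3.11.15.

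The members and gene lists were chosen with earlier results of these data known, so lists are described by counts and medians, and no list was tested. Named members are those that passed, those averaging 10 or more, the electron partners, and the 3 largest differences in each direction among all members that did not pass. Other members are given by their difference. Named genes of other lists are up to 4 that passed, by size. Alternatives changed the probe set, a filter on dim genes, normalization (cyclic loess, a further quantile step), the variance model, array weights, the block and the probe sets tested, added the mean of the Gapdh and actin 3′ minus 5′ differences as a covariate, left out each array, and set PiZ replicate 1 alone against WT with the spread taken from WT. No other sample column was present.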

Additional observations from a re-analysis of the deposited data

How the results depend on the processing

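Across 16 alternatives, 573 values of named members were compared with those reported. Direction and side of the threshold were kept in 482, a call was lost in 37, gained in 32, and the sign turned in 22. All sign changes were of members that did not pass as reported. With array weights, which gave PiZ replicate 1 the lowest weight (0.173), 12 members were higher in PiZ and 6520 genes passed. With the 3′ to 5′ covariate 1814 genes passed. Leaving out 1 array in turn gave 3 to 12 higher members, 8 to 18 lower members and 1068 to 6175 genes in all. The median of the members was -0.0019 with the mean of all probe sets, -0.32 without dim genes, -0.059 with the covariate and -0.072 for PiZ replicate 1 alone, and -0.028 to 0.104 when 1 array was left out. Without dim genes the median of all genes was -0.08, against 0.08 with them. With PiZ replicate 1 alone, Cyb5b differed by 0.082, Cyb5r3 by -0.28, Cyp3a13 by 0.091 and Cyp4a14 by -0.28. With the covariate, Cyb5b differed by 0.10, Cyb5r3 by -0.32, Cyp1a2 by -0.014, Cyp3a13 by 0.14 and Cyp4a14 by -0.21. With cyclic loess, Cyp3a11 differed by 0.10, Cyp3a13 by 0.0069 and Cyp4f15 by 0.12, and with the further quantile step by 0.067, 0.0016 and 0.12. Array weights gave 0.0088 for Cyp3a11 and 0.15 for Cyp4f15, and the mean of probe sets gave -0.51 for Cyb5r3. Leaving out 1 array gave -0.039 to 0.022 for Cyp3a11, -0.22 to 0.0053 for Cyp3a13 and -0.11 to 0.16 for Cyp4f15. The cause of these changes was not tested.

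Replicate numbers are shared by the groups, but same-numbered arrays deviated together with correlations of 0.26, 0.29 and -0.03, so the numbers were not taken to pair the samples. With the replicate block, 5 members were higher and 13 lower, 18 in all, which include the 17 as reported and Cyp2f2, and 3225 genes passed. All 16 members averaging under 7 had positive differences, as did 4798 of all 6573 genes that dim. The lower quartile of all probe sets was higher in each PiZ array than in each WT array. The part of this shift in the differences of dim members was not tested.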

Other observations

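P450 genes of families 5 and above, which make bile acids, steroids and sterols or clear retinoids, are not among the members. Of 14 measured, 2 were higher and 2 lower in PiZ, with a median difference of 0.16. Cyp26a1, which clears retinoic acid, read 9.56, 8.70 and 8.69 in PiZ, against 6.39, 8.11 and 7.59 in WT, a rise of 1.62 ± 0.44 on the log2 scale (SE, n = 3 each, limma adjusted p 0.0341). Cyp21a1, a steroid 21-hydroxylase, rose by 0.53 ± 0.11 (adjusted p 0.0158) at a low level. Cyp8b1, which makes the precursor of cholic acid, read 10.23, 9.92 and 9.96 in PiZ, against 10.81, 10.91 and 10.96 in WT, and fell by 0.85 ± 0.12 (adjusted p 0.00437). Cyp7b1, of the alternative bile acid pathway, fell by 0.70 ± 0.17 (adjusted p 0.0266). Cyp7a1, which starts the classical bile acid pathway and was singled out after its values were seen, read 10.15, 9.38 and 9.99 in PiZ, against 8.13, 8.50 and 10.49 in WT, with groups that overlapped and a difference of 0.80 ± 0.56 (adjusted p 0.316).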
